A study of Mus musculus with 6 samples.

Results

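Follistatin, the activin subunits and the activin receptors form a small secreted signalling system, and its 9 genes (Fst, Fstl3, Inhba, Inhbb, Inhbc, Inhbe, Acvr1b, Acvr2a and Acvr2b) were followed here in the livers of fasted mice lacking CREBH and of wild-type (WT) mice. The 9 genes were taken from 55536 annotated genes by their symbols, and the set was chosen by the measured difference of Fst between CREBH-KO and WT, which was steep. That comparison therefore picked the set, and the fold changes of its members are given as a description without p-values. CREBH, the product of Creb3l3, is made in hepatocytes as a membrane protein and is cut to release a transcription factor active in fasting. The samples were 3 livers labelled CREBH-K.O (CREBH-KO below) and 3 labelled WT, all taken after an overnight fast of 14 h and all labelled with the treatment Fasting. No fed group was analysed here, and the sources used here give no sex, age or strain and no account of how the allele was made.

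Activins are dimers of inhibin beta subunits. The subunits encoded by Inhba and Inhbb make activins A and B, which bind the type II receptors ACVR2A and ACVR2B, recruit the type I receptor ALK4 (encoded by Acvr1b) and signal through SMAD2 and SMAD3. Inhbc and Inhbe encode subunits made mainly by hepatocytes, and activin E, the product of Inhbe, is known as a liver hormone that restrains fat breakdown in adipose tissue. Follistatin (Fst) and its relative FSTL3 bind activins A and B and block their access to receptors. Liver-derived follistatin is known to rise in blood when glucagon is high relative to insulin.

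Reads counted in genes ranged from 28106243 to 34146918 in the CREBH-KO libraries and from 31679996 to 39288819 in the WT libraries. Creb3l3 stood at 57.4, 45.0 and 46.4 CPM in CREBH-KO libraries 1, 2 and 3, against 466, 495 and 495 CPM in WT libraries 1, 2 and 3 (CPM, counts relative to the TMM-scaled library size). Summed CPM of the hepatocyte markers Alb, Ttr, Apoa2, Hnf4a and Cps1 ran from 67668 to 73231 in CREBH-KO and from 59598 to 72809 in WT. CREBH-KO 2 and CREBH-KO 3 are marked in the labels as having lost their read 1 sequence file, so fold changes of members are also given without them. Of the 24 genes called in the lists of other genes below, 5 (Pcsk6, Bmper, Igfbp1, Atf5 and Asns) kept their call without those 2 libraries, in a fit that leaves CREBH-KO 1 as the lone sample of its group. Of 15589 genes tested across the genome, 10.4% were called at an adjusted p under 0.05 (the quasi-likelihood test of edgeR, adjusted after Benjamini-Hochberg), 3.91% higher and 6.46% lower in CREBH-KO. Higher genes numbered 609 of 1616 calls with TMM scaling and 812 of 1539 with library size alone. Samples are labelled independent, without a statement that each was a different animal, so p-values and errors below cover the spread between these 6 samples.

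Sequence ahead of Inhbe is shown first because Inhbe and Fst differed most between the genotypes, in opposite directions, and because Inhbe shares a short element with genes of the ATF4 stress response whose values follow below. RefSeq promoter windows (GRCm38.p6, 250 bases before to 50 bases after a gene's start) were available for 8 of the 9 members; Fst has no entry. Each window was searched on both strands for the ATF4-C/EBP composite element TGATGNAA, the CRE palindrome TGACGTCA and its half-site TGACG, the FoxO element TGTTTAC, the SMAD palindrome GTCTAGAC, the unfolded protein response core CCACG and the TATA box TATAAA. The CRE half-site lies within the palindrome, and no other pair of these motifs contains the other. Among the 8 members, the ATF4-C/EBP element matched in Inhbe alone, on the strand opposite to the gene, with its first base 181 bases before the start. It was found in 3.97% of all 32851 windows and in 7 of the 18 listed ATF4 and CHOP genes. The lines below give 30 bases around the match in Inhbe and in 3 of those genes, 5′ to 3′ on the gene's strand, with the match in capitals.
Inhbe, minus strand, chr10:127352011-127352040: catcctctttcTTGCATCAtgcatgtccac
Fgf21, minus strand, chr7:45615611-45615640: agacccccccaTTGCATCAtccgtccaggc
Vldlr, plus strand, chr19:27216809-27216838: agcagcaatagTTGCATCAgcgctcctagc
Asns, minus strand, chr6:7693214-7693243: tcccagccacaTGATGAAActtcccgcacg

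Inhbe, Fgf21 and Vldlr carry the same 8 letters in the same orientation, 181, 139 and 200 bases before their starts, and so do Atf3, Chac1 and Nupr1, whose stretches are not printed. A match is a description of letters and says nothing of whether a factor binds there. GENCODE M21 begins its Inhbe transcript further upstream than RefSeq does, so the Inhbe stretch lies inside the first exon, in the 5′ untranslated part, of the model used for counting. None of the 7 motifs occurred in the window of Inhbc, the neighbour of Inhbe. The UPR core was found in the windows of Inhbe, Inhba and Acvr2b and in 32.8% of all windows, and the TATA box in those of Inhba and Fstl3 and in 13.6% of all windows. None of the 8 member windows held the CRE palindrome, its half-site, the FoxO element or the SMAD palindrome. Over all windows these were found in 1.79%, 20.8%, 3.65% and 0.213%. The 250 bases before the RefSeq start of Inhbc (minus strand, chr10:127370549-127370798) are shown for comparison, in lower case since no motif matched.
Inhbc: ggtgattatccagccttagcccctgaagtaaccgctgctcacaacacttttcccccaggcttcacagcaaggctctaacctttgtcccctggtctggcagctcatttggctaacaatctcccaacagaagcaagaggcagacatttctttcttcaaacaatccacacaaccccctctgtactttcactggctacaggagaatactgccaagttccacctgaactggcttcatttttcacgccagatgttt

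The antagonist Fst (ENSMUSG00000021765, minus strand of chromosome 13, 114452290 to 114458951, GRCm38) was far higher in CREBH-KO liver. Fst was counted 759, 786 and 426 times in CREBH-KO libraries 1, 2 and 3, against 86, 46 and 27 times in WT libraries 1, 2 and 3. In normalised counts these were 22.2, 26.5 and 13.0 CPM in CREBH-KO and 2.22, 1.44 and 0.877 CPM in WT. The lowest CREBH-KO library, CREBH-KO 3, lay far above the highest WT library, WT 1, and the groups did not overlap. Fst averaged 20.6 ± 6.90 CPM in CREBH-KO and 1.51 ± 0.675 CPM in WT (SD, n = 3 each). On the log2 scale the difference was 3.74 ± 0.35 (SE), a 13.4-fold difference with 10.5-fold and 17.0-fold at 1 SE to either side. Counting Fst itself, 17 of the 15589 tested genes had a log2 fold change at least as large.

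Within each genotype Fst varied more than most members: the highest and lowest library differed 2.04-fold in CREBH-KO and 2.53-fold in WT. With CREBH-KO 1 as the only CREBH-KO library, its log2 fold change was 3.83, so the difference is as large without the libraries that lost a read file. The antisense gene Gm47040 overlaps 2.51% of the exonic bases of Fst. The neighbouring genes did not share the difference: Ndufs4, 64.0 kb away and coding for a subunit of respiratory complex I, was at 0.06 ± 0.08 on the log2 fold scale (SE, edgeR adjusted p = 0.705), and Mocs2, 359 kb away on the other side, had -0.06 ± 0.09 (edgeR adjusted p = 0.751).

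The second antagonist, Fstl3 (ENSMUSG00000020325, plus strand of chromosome 10, 79777272 to 79782630), was close to absent. No read was counted in any CREBH-KO library, and 2, 1 and 4 reads were counted in WT libraries 1, 2 and 3. With the CREBH-KO group set at a floor of 3 counts and the 7 WT reads taken as counted, Fstl3 was 2.22-fold lower in CREBH-KO. Counting error of the WT reads was left out, so this is not a lower bound. Fstl3 was left out of the test for its low counts. Of its exonic bases, 47.3% lie within the antisense gene Prss57, and no source used here states whether strand was used in counting. Fstl3 also lies 1.30 Mb from Creb3l3 on the same chromosome. Of the 122 other tested genes within 2 Mb of Creb3l3, 1 was called higher and 10 lower. The share called in either direction was 9.02%, against 10.4% of all tested genes, of which 3.91% were higher and 6.46% lower.

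**Figure D1:**
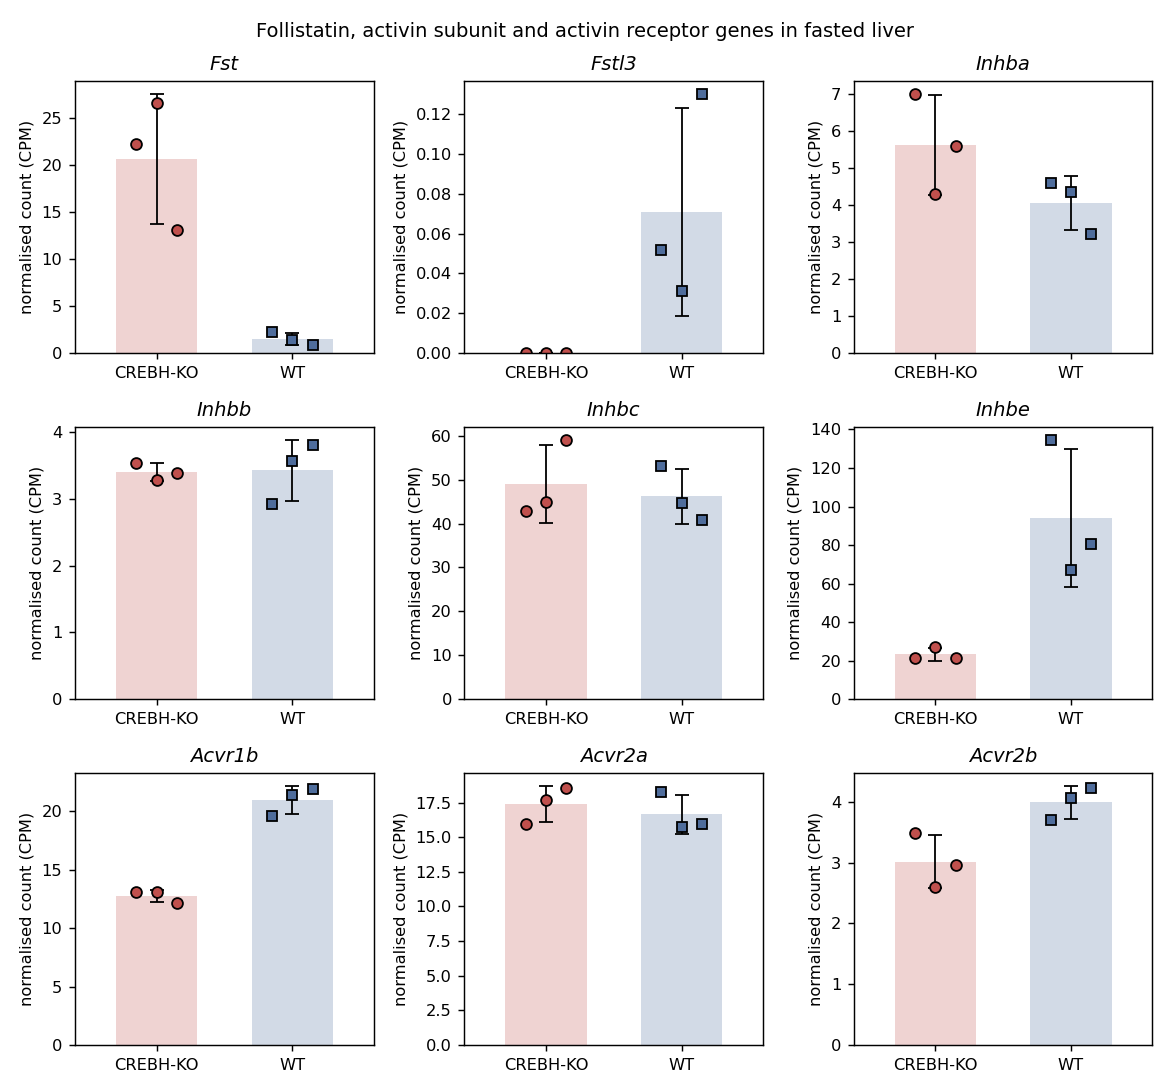
Normalised counts (CPM, y axis, from 0, scaled for each gene) of the 9 member genes in 3 CREBH-KO livers (circles) and 3 WT livers (squares); bars are means and error bars SD. Fst was 13.0 to 26.5 CPM in CREBH-KO and 0.877 to 2.22 CPM in WT, Inhbe and Acvr1b lay lower in CREBH-KO without overlap, and Inhbb, Inhbc and Acvr2a overlapped between the genotypes.

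Among the ligand subunits, Inhbe (ENSMUSG00000047492, minus strand of chromosome 10, 127348857 to 127354411) was lower in CREBH-KO liver. It stood at 21.4, 27.2 and 21.3 CPM in CREBH-KO libraries 1, 2 and 3, against 135, 66.9 and 80.7 CPM in WT libraries 1, 2 and 3. The CREBH-KO libraries were close to each other and WT 1 was the highest of all, and the groups did not overlap. Inhbe averaged 23.3 ± 3.39 CPM in CREBH-KO and 94.1 ± 35.8 CPM in WT (SD, n = 3 each). The log2 fold change was -2.02 ± 0.24 (SE), or 4.05-fold lower, with 3.43-fold and 4.77-fold at 1 SE to either side. It was -1.68 without WT 1, the library with the most Inhbe, and -2.16 with CREBH-KO 1 as the only CREBH-KO library. Counting Inhbe itself, 108 of the 15589 tested genes had a log2 fold change as low or lower.

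Inhbc (ENSMUSG00000025405, minus strand of chromosome 10, 127356322 to 127370431) lies 1.91 kb from Inhbe in the same orientation, and it did not share the difference. It stood at 42.9, 45.0 and 59.1 CPM in CREBH-KO libraries 1, 2 and 3, against 53.1, 44.6 and 40.7 CPM in WT libraries 1, 2 and 3. The ranges overlapped, and the log2 fold change was 0.09 ± 0.14 (SE). It ran from -0.07 to 0.19 with 1 library left out and was -0.13 with CREBH-KO 1 as the only CREBH-KO library. The antisense gene Gm47200 covers 14.4% of the exonic bases of Inhbc. On the other side of the pair, Arhgap9, a GTPase-activating protein gene 18.9 kb from Inhbe, was at 0.32 ± 0.38 on the log2 fold scale (SE, edgeR adjusted p = 0.650).

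Inhba and Inhbb, the subunits of activins A and B, were low, and both overlapped between the genotypes in CPM. Inhba (ENSMUSG00000041324, plus strand of chromosome 13, 16011851 to 16031621) stood at 6.99, 4.29 and 5.60 CPM in CREBH-KO libraries 1, 2 and 3, against 4.60, 4.35 and 3.22 CPM in WT libraries 1, 2 and 3. Its ranges overlapped and its log2 fold change was 0.47 ± 0.23 (SE), or 0.76 with CREBH-KO 1 as the only CREBH-KO library. Inhbb (ENSMUSG00000037035, minus strand of chromosome 1, 119415465 to 119422248) stood at 3.54, 3.28 and 3.39 CPM in CREBH-KO, against 2.92, 3.56 and 3.80 CPM in WT. The CREBH-KO values all lay within the WT range, and the log2 fold change was -0.01 ± 0.19 (SE), or 0.03 with CREBH-KO 1 as the only CREBH-KO library.

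The make-up of the subunit transcripts differed between the genotypes. On a per-length scale (TPM, counts divided by the length of the union of annotated exons and brought to the same total in every library), Inhbe held 13.9%, 16.6% and 10.7% of the summed TPM of the 4 subunit genes in CREBH-KO libraries 1, 2 and 3, against 45.8%, 33.0% and 39.4% in WT libraries 1, 2 and 3. Inhbc held 78.7% to 84.9% in CREBH-KO and 51.7% to 63.0% in WT. Inhba held 2.18% to 3.77% in CREBH-KO and 1.30% to 1.78% in WT, without overlap, whereas the shares of Inhbb overlapped. The ratio of Inhbe to Inhbc averaged 0.170 ± 0.043 in CREBH-KO and 0.701 ± 0.181 in WT (SD, n = 3 each). The summed level of the 4 genes averaged 70.5 ± 11.4 TPM in CREBH-KO and 89.1 ± 18.7 TPM in WT, and those sums overlapped between the groups. The shares depend on the length given to Inhbe: GENCODE M21 gives it 5319 exonic bases, whereas its whole RefSeq gene spans 2447 bases, and with that span the ratio to Inhbc averaged 0.370 in CREBH-KO and 1.52 in WT.

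**Figure D2:**
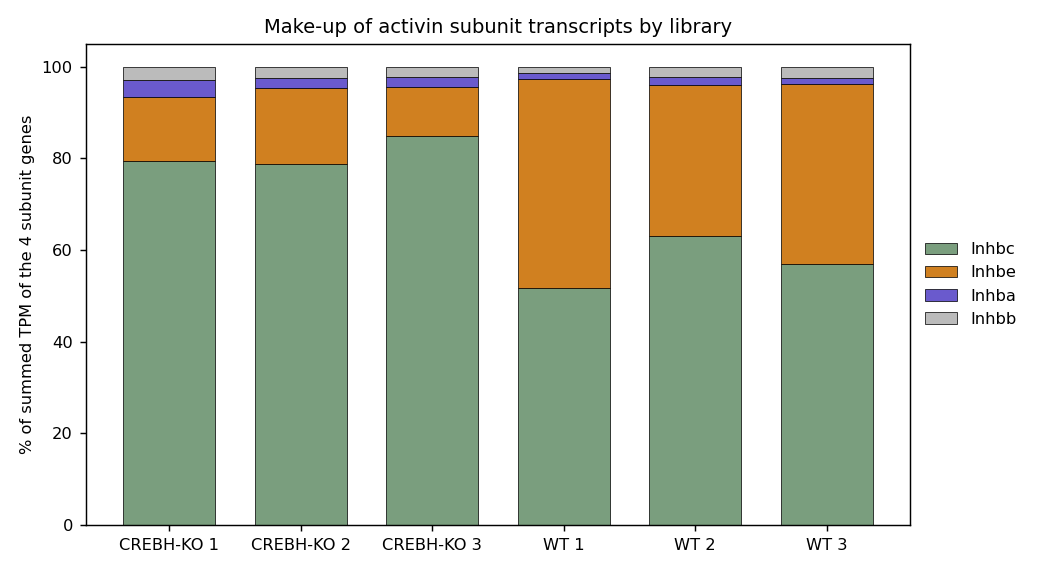
Share of each activin subunit gene in the summed TPM of Inhba, Inhbb, Inhbc and Inhbe (y axis, %), 1 bar per library, CREBH-KO at the left and WT at the right. The Inhbe segment spans 10.7% to 16.6% in CREBH-KO and 33.0% to 45.8% in WT.

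Of the receptors, the type I receptor gene Acvr1b (ENSMUSG00000000532, plus strand of chromosome 15, 101174067 to 101213684) was lower in CREBH-KO liver with little spread. It stood at 13.1, 13.1 and 12.2 CPM in CREBH-KO libraries 1, 2 and 3, against 19.6, 21.4 and 21.9 CPM in WT libraries 1, 2 and 3. The groups did not overlap. Acvr1b averaged 12.8 ± 0.504 CPM in CREBH-KO and 20.99 ± 1.22 CPM in WT (SD, n = 3 each), with a log2 fold change of -0.72 ± 0.10 (SE), or 1.64-fold lower. With library size alone as the scaling it was -0.64, and with CREBH-KO 1 as the only CREBH-KO library -0.71. Acvrl1, a receptor gene of the same family 28.7 kb away, pointed the other way at 0.43 ± 0.22 and did not pass (edgeR adjusted p = 0.261).

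The type II receptor genes differed less. Acvr2a (ENSMUSG00000052155, plus strand of chromosome 2, 48814109 to 48903269) stood at 16.0, 17.7 and 18.6 CPM in CREBH-KO libraries 1, 2 and 3, against 18.3, 15.7 and 16.0 CPM in WT libraries 1, 2 and 3. The ranges overlapped, and the log2 fold change was 0.06 ± 0.11 (SE); with CREBH-KO 1 as the only CREBH-KO library it was -0.084. The gene Orc4 on the other strand covers 7.84% of its exonic bases. Acvr2b (ENSMUSG00000061393, plus strand of chromosome 9, 119402118 to 119434995) stood at 3.48, 2.60 and 2.97 CPM in CREBH-KO, against 3.69, 4.06 and 4.22 CPM in WT. The groups did not overlap, but CREBH-KO 1 and WT 1 were close, and the log2 fold change was -0.40 ± 0.19 (SE), or -0.22 with CREBH-KO 1 as the only CREBH-KO library. The ratio of Acvr1b to Acvr2a in TPM averaged 0.950 ± 0.104 in CREBH-KO and 1.63 ± 0.219 in WT (SD, n = 3 each), without overlap.

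Over the set, 8 of the 9 genes passed the filter on low counts. Of these, 1 (Fst) was called higher and 2 (Inhbe and Acvr1b) lower, against 10.4% of all tested genes called. Ranges were apart in 4 of the 8, 1 higher and 3 lower, against 30.6% of all tested genes. The contrast chose the set, so nothing is read from these counts.

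Of the other tested genes flanking the members, Sugct, 826 kb from Inhba, was called lower (-0.56 ± 0.10 SE, edgeR adjusted p = 0.00804).

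The order of levels per length differed chiefly through Fst and Inhbe. In CREBH-KO, Inhbc was the most abundant at 57.3 ± 11.1 TPM (SD, n = 3). It was followed by Fst at 9.83 ± 3.83 TPM and Inhbe at 9.58 ± 2.24 TPM, whose ranges overlapped, then by Acvr2a (6.67 TPM) and Acvr1b (6.29 TPM), whose ranges overlapped too. Inhba, Inhbb and Acvr2b followed at 1.65 to 1.89 TPM, with no separation between neighbours, and Fstl3 was last with no reads. In WT, Inhbc stood at 50.4 ± 6.24 TPM and Inhbe at 35.8 ± 13.2 TPM, with overlapping ranges. Acvr1b (9.66 TPM), Acvr2a (5.95 TPM) and Acvr2b (2.07 TPM) followed, each clear of the next. Inhbb (1.64 TPM) and Inhba (1.29 TPM) overlapped, and Fst at 0.667 ± 0.289 TPM lay below them and above Fstl3. With the RefSeq span as its length, Inhbe ranked above Inhbc in WT. The ratio of Fst to the summed 4 subunits was 0.167, 0.188 and 0.0758 in CREBH-KO libraries 1, 2 and 3, against 0.00875, 0.00822 and 0.00497 in WT libraries 1, 2 and 3.

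**Figure D3:**
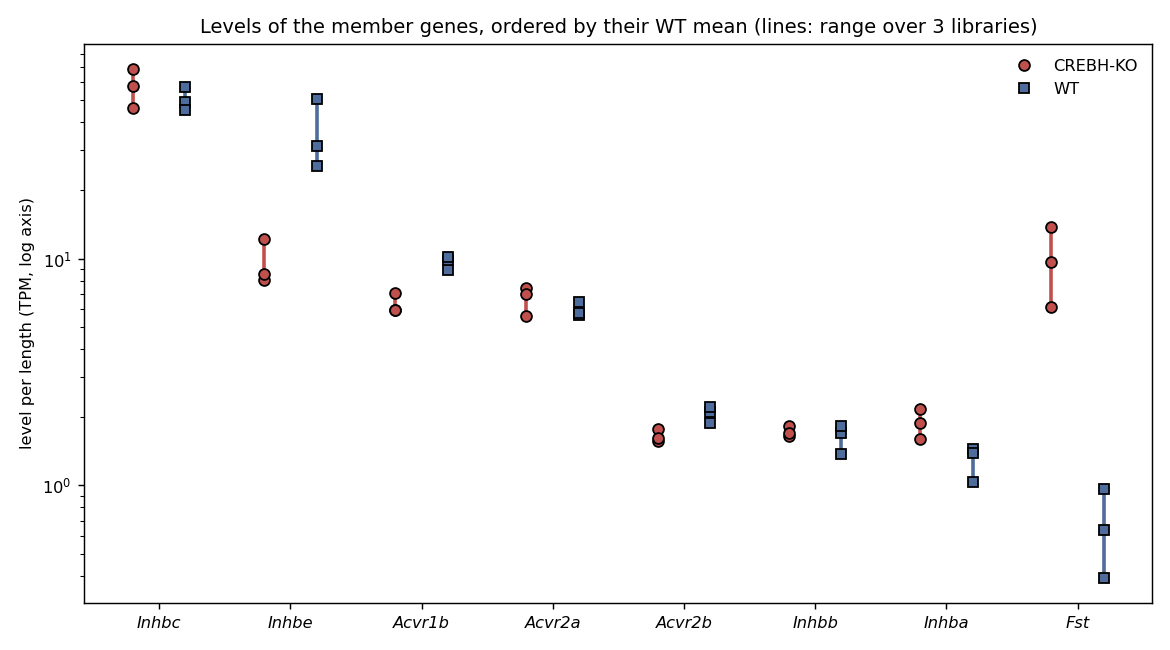
Levels per length (TPM, log axis) of 8 member genes in CREBH-KO (circles) and WT (squares), ordered by their WT mean; each point is a library and lines span the range. Fst was last of these 8 in WT at 0.667 TPM and stood beside Inhbe in CREBH-KO at 9.83 TPM; Fstl3, with no reads in CREBH-KO, is not drawn.

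Few of the other genes of the pathway were called, which with 3 libraries a group does not show equal levels. Of 37 listed (related ligands, convertases, receptors, co-receptors, secreted binders and SMADs), 27 were tested, 1 rose, 2 fell and 24 did not pass. The share called was 11.1%, near the 10.4% of all tested genes, and the list median of log2 fold changes was -0.02, against 0.02 over all tested genes. Mstn, Tdgf1, Cfc1, Fstl4 and Fstl5 had no reads in any library. Both falls were among the 4 tested proprotein convertases, enzymes that cut the precursors of this ligand family. The other tested convertases, Pcsk5 and Pcsk7, had log2 fold changes of 0.24 and -0.09 and did not pass. Pcsk6 (PACE4) fell to 96.9 ± 12.3 CPM in CREBH-KO, against 149 ± 10.7 CPM in WT (SD, n = 3 each; log2 fold change -0.62 ± 0.11 SE, edgeR adjusted p = 0.00750). Furin fell to 256 ± 20.0 CPM in CREBH-KO, against 356 ± 55.0 CPM in WT (-0.47 ± 0.12, edgeR adjusted p = 0.0374). The call of Furin was lost without any 1 library except WT 1 (adjusted p up to 0.140) and with library size alone as the scaling (0.0568).

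The ligand gene Tgfb3 rose to 1.45 ± 0.147 CPM in CREBH-KO, against 0.437 ± 0.157 CPM in WT (1.74 ± 0.37 on the log2 scale, SE; edgeR adjusted p = 0.0188). Its call was lost without CREBH-KO 2, CREBH-KO 3 or WT 2 (adjusted p of 0.0519 to 0.0679). None of the 6 tested receptor genes passed, nor did any of the 7 SMAD genes and regulators. Among uncalled tested genes whose groups did not overlap, Fstl1, Smad3, Acvrl1 and Bmpr1a had log2 fold changes of 0.66, 0.54, 0.43 and 0.25. Tgfbr2, Smad2 and Zfyve9, also without overlap, had -0.39, -0.28 and -0.20. Groups did not overlap in 30.6% of all tested genes. Smad3 stood at 15.1, 15.7 and 25.4 CPM in CREBH-KO libraries 1, 2 and 3, against 12.1, 14.1 and 12.5 CPM in WT libraries 1, 2 and 3. With 1 library left out, the log2 fold change of Smad3 was as low as 0.26. The most abundant genes that did not pass, per length, were Fkbp1a, whose product holds type I receptors inactive, the co-receptor Eng and the shared mediator Smad4, with log2 fold changes of 0.14, -0.02 and -0.01. The receptor gene Acvr1c (ALK7), reported as the receptor of activin E in adipose tissue, had 9 reads over the CREBH-KO libraries and 2 over the WT libraries and was not tested.

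**Figure D4:**
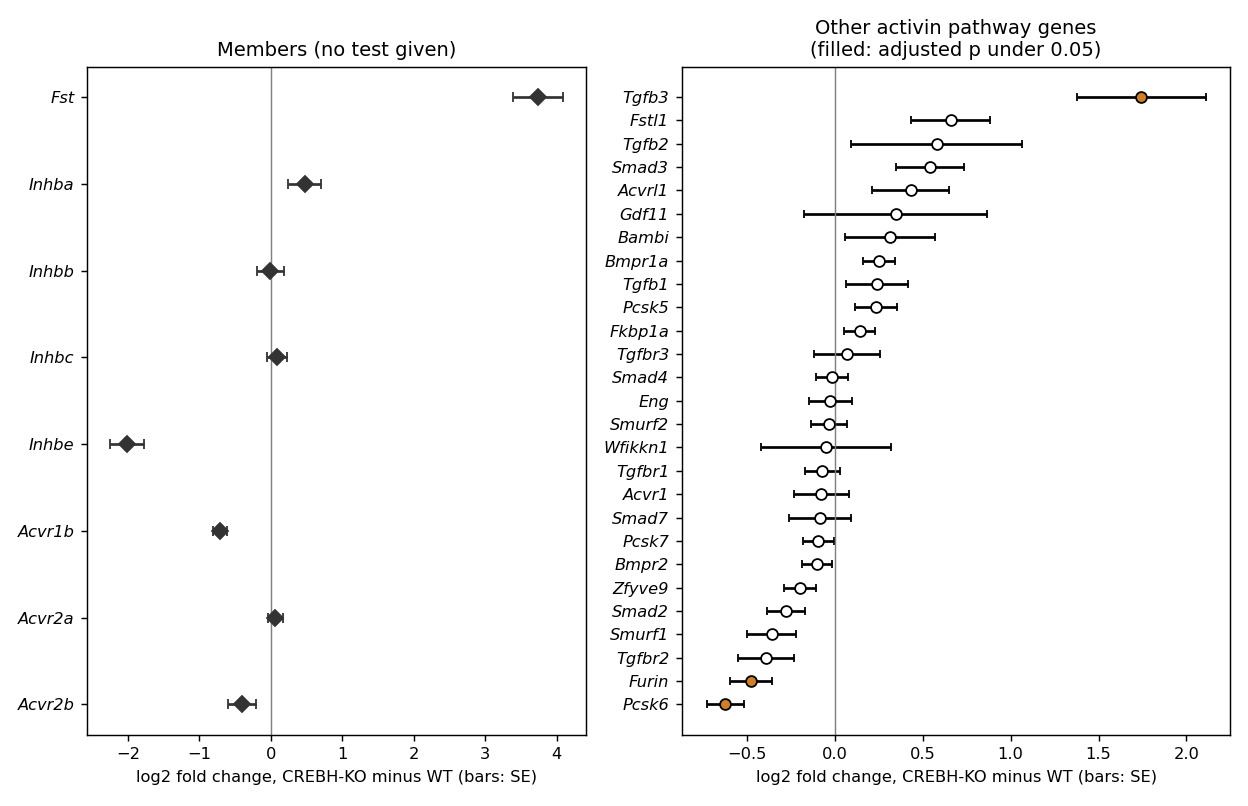
Log2 fold changes, CREBH-KO minus WT (x axis, bars SE, n = 3 each), of the 8 tested members at the left and of 27 tested other genes of the pathway at the right, on separate scales; filled circles passed at an adjusted p under 0.05. Fst (3.74) and Inhbe (-2.02) lie far from 0 on opposite sides, and 3 of the 27 other genes passed.

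Genes that activin and TGF-beta signals are known to induce through SMAD2 and SMAD3 were examined as a readout of the pathway. Of 12 tested, Gadd45b rose and 11 did not pass, so 8.33% were called, against 10.4% of all tested genes. Gadd45b, a growth arrest and stress gene with many other inducers, rose to 23.9 ± 7.53 CPM in CREBH-KO, against 4.61 ± 1.96 CPM in WT (2.36 ± 0.31 on the log2 scale, SE; edgeR adjusted p = 0.00228). Without CREBH-KO 2 and CREBH-KO 3 its adjusted p was 0.0648. The inhibitory Smad7 was at 15.7 ± 2.04 CPM in CREBH-KO and 16.6 ± 3.94 CPM in WT (-0.08 ± 0.18, edgeR adjusted p = 0.814). The most abundant of the others, Tgfbi, Ski and Tsc22d1, had log2 fold changes of 0.34, 0.25 and -1.04. That of Tsc22d1 was -0.44 without WT 1, and -1.38 without WT 3, where it passed (edgeR adjusted p = 0.0133). Ccn2 pointed the other way at 1.14 ± 0.44 (SE, edgeR adjusted p = 0.140), and its groups did not overlap. It also passed without WT 3 (1.72, edgeR adjusted p = 0.0340). The list median was 0.28. Of 13 genes of the BMP branch, which follistatin can also touch, 3 rose (Bmper, Hamp and Atoh8) and Smad9 fell, a share of 30.8%. Bmper, an extracellular BMP-binding protein, stood at 4.42, 5.17 and 6.91 CPM in CREBH-KO libraries 1, 2 and 3, against 0.181, 0.406 and 0.585 CPM in WT libraries 1, 2 and 3. Hamp, the hepcidin gene, rose by 1.05 ± 0.14 (SE, edgeR adjusted p = 0.00274), with its near-identical copy Hamp2 making the count uncertain. Smad9 fell by 0.84 ± 0.16 (SE) on the log2 scale (edgeR adjusted p = 0.0129), a call lost without WT 2 (0.0606). Atoh8, a BMP-induced factor, rose by 0.48 ± 0.11 (edgeR adjusted p = 0.0269), a call lost without CREBH-KO 2, CREBH-KO 3, WT 1 or WT 2 (up to 0.110). The BMP-induced Id2, Id3 and Id1, the most abundant of the others, had 0.19, -0.17 and -0.28 and did not pass.

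Liver Fst is known to respond to glucagon, insulin and the transcription factor FoxO1, so genes of that axis were set beside it. Of 16 tested, 4 rose and 3 fell, and the share called was 43.8%, against 10.4% of all tested genes. This list and the next, like the lists of other genes above, were drawn up with earlier results of these data known. The shares called in all of them are therefore descriptions. Igfbp1, a FoxO1-induced gene that insulin suppresses, stood at 400, 268 and 261 CPM in CREBH-KO libraries 1, 2 and 3, against 69.5, 131 and 65.7 CPM in WT libraries 1, 2 and 3 (log2 fold change 1.80 ± 0.27 SE, edgeR adjusted p = 0.00412). The glucagon receptor gene Gcgr fell to 285 ± 12.7 CPM in CREBH-KO, against 395 ± 15.6 CPM in WT (-0.47 ± 0.08, edgeR adjusted p = 0.00641). Creb1, which encodes the cAMP-responsive factor CREB, rose by 0.60 ± 0.12 (edgeR adjusted p = 0.0152), a call lost without CREBH-KO 2, CREBH-KO 3 or WT 2 (up to 0.0682). Foxo1 itself was at 49.4 ± 8.53 CPM in CREBH-KO and 58.4 ± 12.2 CPM in WT and did not pass (-0.24 ± 0.17, edgeR adjusted p = 0.409). Of the remaining calls, Pdk4 and G6pc rose (log2 fold changes of 3.05 and 0.74) and Pck1 and Foxo3 fell (-0.64 and -0.69). Pdk4, G6pc and Foxo3 did not pass in edgeR's robust fit (adjusted p = 0.0678, 0.0653 and 0.0596). The log2 fold change of Pdk4 was 4.00 without WT 1, its highest WT library. G6pc and Foxo3 lost their calls without any 1 library except WT 1, and Pck1 without CREBH-KO 2, CREBH-KO 3, WT 2 or WT 3 (adjusted p up to 0.143). Insr and Crtc2, abundant genes that did not pass, had -0.19 and -0.24. Sik1 was at 38.8 ± 11.9 CPM in CREBH-KO and 21.5 ± 4.73 CPM in WT (SD, n = 3 each), without overlap. It narrowly failed to pass (0.85 ± 0.23 SE, edgeR adjusted p = 0.0516) and passed in DESeq2 (adjusted p = 0.00231). The number called was 4 in edgeR's robust fit and 3 to 8 with 1 library left out. CREBH-KO 2, CREBH-KO 3, WT 2 and WT 3 were the libraries whose removal took the number to 3 or 4.

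Inhbe is known as a gene that amino acid and endoplasmic reticulum stress induce through ATF4, and other such genes went both ways. Of 18 tested, 6 rose and 3 fell, a share of 50% against 10.4% of all tested genes, and the list median was 0.35 against 0.02. Fgf21, a fasting hormone gene with the same ATF4-C/EBP letters as Inhbe (above), fell: it stood at 0.614, 1.08 and 0.581 CPM in CREBH-KO libraries 1, 2 and 3, against 5.81, 2.69 and 2.70 CPM in WT libraries 1, 2 and 3 (log2 fold change -2.31 ± 0.40 SE, edgeR adjusted p = 0.00810). Vldlr and Asns, whose stretches are also printed above, rose by 1.37 ± 0.26 and 1.38 ± 0.26 (edgeR adjusted p = 0.0115 and 0.0124). The call of Asns was lost without WT 2 (0.0536). Trib3, with a match just after its start, fell by 1.15 ± 0.22 (edgeR adjusted p = 0.0124; 0.0507 without CREBH-KO 3), and Atf3, Chac1 and Nupr1 held a match and did not pass. Among the called genes with a match, Fgf21 and Trib3 fell and Vldlr and Asns rose. Whether the element has a part in the Inhbe difference was not tested. Gdf15, a stress hormone gene, rose by 1.90 ± 0.27 (edgeR adjusted p = 0.00324; 1.12 and adjusted p = 0.0618 without CREBH-KO 2 and CREBH-KO 3) and Atf5, a factor gene of this response, fell by 1.06 ± 0.10 (edgeR adjusted p = 0.000436). The remaining calls were the rises of Psat1, Mthfd2 and Ddit3. Psat1 lost its call without CREBH-KO 3 or WT 2. Only the removal of WT 3 left the call of Ddit3 in place, and only that of CREBH-KO 1 the call of Mthfd2 (edgeR adjusted p otherwise up to 0.123). Without CREBH-KO 2 and CREBH-KO 3 the log2 fold change of Mthfd2 was 0.81, against 1.43 with all libraries. The abundant Cebpb, Atf4 and Ddit4 did not pass (-0.34, 0.33 and 0.71). The number called was 5 without CREBH-KO 3 or without WT 2.

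**Figure D5:**
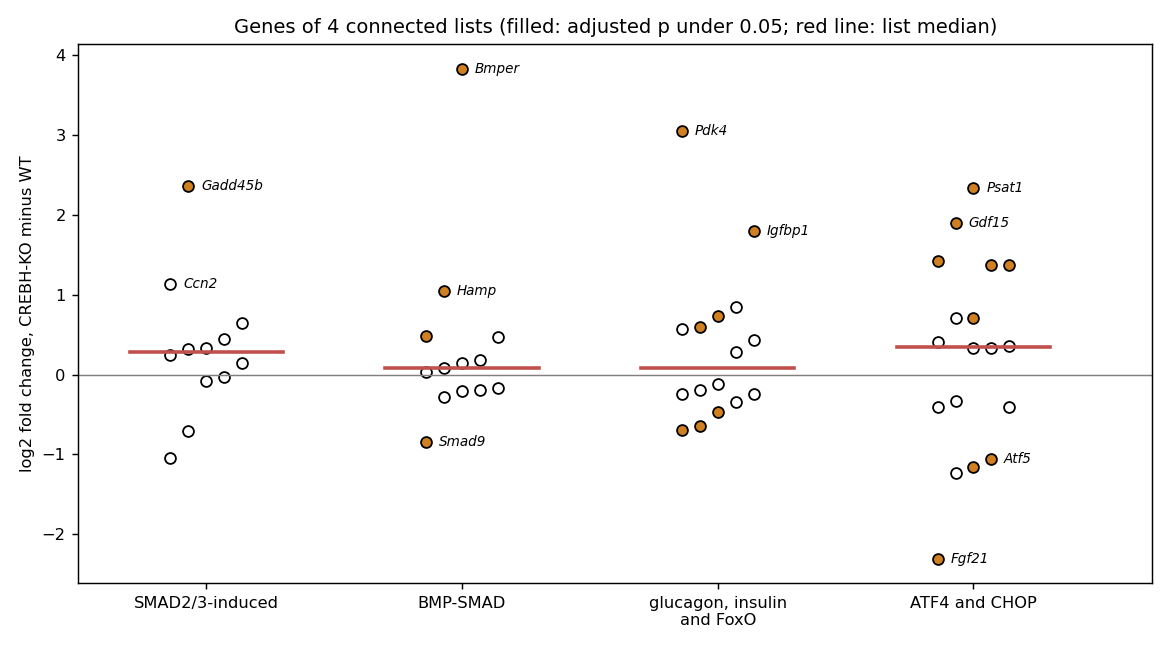
Log2 fold changes, CREBH-KO minus WT (y axis), of the tested genes of 4 connected lists; each circle is a gene, filled at an adjusted p under 0.05, and red lines are list medians. Gadd45b is the only filled circle of the SMAD2/3-induced list, and the ATF4 and CHOP list holds Fgf21 (-2.31) at the bottom and Psat1 (2.34) at the top.

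The genes whose profile over the 6 libraries was nearest to that of Fst were Chrm3 (a muscarinic receptor), Sema3g (a secreted semaphorin), Pdk4, Gm15441 and Dhrs9. Nearness was the root mean square difference of log2 CPM centred on the mean of the 6 libraries, over 12561 genes with a mean of at least 1 CPM, and it ran from 0.414 for Chrm3 to 0.569 for Dhrs9. It mostly reflects the difference between the genotypes, which these genes share. Pdk4, a kinase gene that restrains pyruvate oxidation in fasting, had 55.1, 89.6 and 37.8 CPM in CREBH-KO libraries 1, 2 and 3, against 14.1, 3.85 and 3.703 CPM in WT libraries 1, 2 and 3. Its groups did not overlap. For Inhbc, the member with the highest mean TPM, the nearest were Zfhx2, Kmt2d, Mup3, Gm31333 and Kyat3, at 0.032 to 0.056. For Inhbe, added after its values were seen, the nearest was Fgf21 at 0.211, followed by Acot11, Cyp2a21-ps, Slc16a11 and Mup18, up to 0.277.

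In whole liver, more cells of a type and more RNA per cell cannot be told apart. Markers of some other cell types moved with the genotype. Summed CPM of 7 stellate cell markers was 189 to 228 in CREBH-KO and 148 to 171 in WT, and 2 of the 7 (Colec11 and Dcn) rose. Summed CPM of 4 mesothelial markers was 7.67 to 8.95 in CREBH-KO and 1.79 to 6.88 in WT, and 1 of the 4 (Msln) rose. Neither sum overlapped between the groups, but each non-overlap rested on 1 gene. Without Dcn the stellate sum was 75.5 to 98.1 CPM in CREBH-KO and 65.3 to 80.8 CPM in WT, and without Msln the mesothelial sum was 5.51 to 6.30 CPM in CREBH-KO and 1.56 to 5.81 CPM in WT. The stellate markers Des, Pdgfrb and Col1a1 also pointed higher, with log2 fold changes of 0.43, 0.59 and 0.58, and did not pass. Lrat and Reln had -0.08 and 0.08. The part of these cells in the Fst difference was not tested. The 5 adipocyte markers summed to 0.029 to 0.135 CPM in CREBH-KO and 0.682 to 3.28 CPM in WT, carried by Cfd, which fell; Lep and Retn had no reads in any library. The summed markers of cholangiocytes, endothelial cells, Kupffer cells, T or B cells, acinar cells and proliferating cells overlapped between the groups; among them 1 gene, the cholangiocyte marker Sox9, passed and rose.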

How the data were processed

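Total liver RNA was sequenced as paired-end reads, per the labels' protocols, from 3 CREBH-KO and 3 WT livers. The authors deposited 1 file of raw read counts per gene and library, which the titles ascribe to HTSeq, per the labels. No source used here names the aligner, build or strand setting. All 55536 identifiers matched GENCODE M21 (GRCm38), which supplied symbols, positions and exon lengths, and the build is taken from that match. Summary lines at the foot of each file (reads assigned to no gene, 27.4% to 31.2%) were left out. Counts were analysed with edgeR 4.0.16 in R 4.3.3: filterByExpr (minimum count 10, minimum total 15; 15589 genes kept, with 99.9% of counts), TMM scaling and the two-sided quasi-likelihood test with Benjamini-Hochberg adjustment over all tested genes. The SE was obtained from the fold change and the F statistic. The step was first run on simulated counts with known changes. Each pair of replicates differed beyond sampling noise (chi-square over degrees of freedom, 16.9 or more). TPM was computed from counts over the union of exons. The members and gene lists were chosen with earlier results of these data known. Ccn2, Fstl1, Smad2, Smad3, Tgfbr2, Bmpr1a, Zfyve9 and Sik1 were named for their values. Pcsk5 and Pcsk7 were named as the other tested convertases. Other named genes were the members, called genes of each list, the most abundant uncalled ones, nearest profiles and flanking genes. A gene that this rule picks is not reported here. DESeq2 1.42.0 and limma-voom (limma 3.58.1) were alternatives. Counts limit the precision of low genes, and the Fstl3 floor covers counting error in CREBH-KO only.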

Additional observations from a re-analysis of the deposited data

How the results depend on the processing

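No paired analysis was possible because the replicate numbers follow accession order and pair no samples. The log2 fold change of Fst ran from 3.47 to 4.13 with 1 library left out, that of Inhbe from -2.21 to -1.68 and that of Acvr1b from -0.77 to -0.68; the ranges were 0.28 to 0.63 for Inhba, -0.12 to 0.07 for Inhbb, -0.07 to 0.19 for Inhbc, 0.01 to 0.12 for Acvr2a and -0.52 to -0.31 for Acvr2b. Fstl3 was fitted with no filter only. Among the other alternatives, a member moved by more than the spread between replicates in 3 cases: Acvr1b with library size alone (-0.64), and Acvr2a (-0.084) and Acvr2b (-0.22) without CREBH-KO 2 and CREBH-KO 3. The number of genes called over the genome was 2456 with no filter, 658 to 1806 with 1 library left out (658 without WT 2, 778 without CREBH-KO 3, 838 without CREBH-KO 2) and 228 without CREBH-KO 2 and CREBH-KO 3. With no filter, 5 other pathway genes and 3 SMAD2/3-induced genes were called. Without CREBH-KO 2 and CREBH-KO 3, 1 other pathway gene, 0 SMAD2/3-induced genes, 1 BMP-branch gene, 1 glucagon, insulin and FoxO gene and 2 ATF4 and CHOP genes were called, with fewer samples in the fit. With 1 library left out these numbers ranged from 1 to 3, 1 to 3, 2 to 4, 3 to 8 and 5 to 9, and edgeR's robust fit called 4 glucagon, insulin and FoxO genes. With the RefSeq span as its length, chosen after seeing the data, Inhbe ranked 1 and Inhbc 2 by WT TPM. The causes were not tested. Where no value is given, counts stayed within 1.5 times those reported. Low counts limit genes such as Fstl3, Acvr1c and Tgfb3.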
